A study of Drosophila melanogaster with 2 samples.

Results

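Chromatin immunoprecipitation followed by sequencing had been used to locate Sox102F at 10 regulatory genes of the fly embryo: odd, sob, drm and bowl, which encode the odd-skipped family of zinc finger proteins, and fkh, byn, cad, hkb, slp1 and slp2, further regulators known from the gut or from segmentation. They were chosen by name for these roles, with earlier results of these data known, and are 10 of the 13968 protein-coding genes on the 7 chromosome arms. Whole Drosophila melanogaster embryos of 12 to 14 h, from the transgenic strain Sox102F-GFP, whose Sox102F has GFP joined to its C-terminus, were sampled as 2 biological replicates (numbers 2 and 3) of 1 group. The sample descriptions give an anti-GFP antibody for the precipitation, while the antibody label names Sox102F, so whether untagged Sox102F could also be precipitated is not settled by the labels. No untagged embryos were analysed here, and the labels do not give the promoter that drives the tagged protein. A peak in whole embryos does not show in how many cells, or in which, the protein was bound. The pooled list and both replicate lists each held 30000 peaks, and the optimal list, thresholded by the authors on the irreproducible discovery rate, held 7488, which were the 7488 highest of the pooled list by signal value. Read depth was unknown, since the lists give no reads.

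Sox102F belongs to the SoxD group of proteins, which bind DNA through an HMG box. The embryonic gut forms from foregut, midgut and hindgut primordia, which are set up by terminal and posterior regulators such as hkb, cad, byn and fkh. Within the foregut and hindgut the small zinc finger protein Drm binds the protein Lines and so frees Bowl, a zinc finger protein that Lines otherwise holds back. Odd is a pair-rule repressor of segmentation, Sob is its close relative, and odd, sob, drm and bowl also act downstream of Notch in the segmenting leg. Slp1 and Slp2 are forkhead-domain proteins best known from segmentation.

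The sequence under 5 summits is shown: those at the bowl and fkh promoters, the only member promoters with an optimal summit, and the highest in the bowl introns, between slp1 and slp2, and at drm. The drm and fkh summits are moderate. Some higher ones are not shown, such as those upstream of sob (499.7) and near Pomp in the cad interval (503). Like these, the drm summit is nearer to the TSS of a neighbouring gene than to that of drm. Each run is the plus strand of dm6 from RefSeq, 50 bp either side of the summit, in lower case. Capitals mark the short Sox core ACAAT or its reverse complement ATTGT. The windows are the bowl promoter (chr2L:3771430-3771530), the highest bowl intron summit (chr2L:3776751-3776851), the summit between slp1 and slp2 (chr2L:3832476-3832576), the highest summit of drm (chr2L:3534591-3534691) and the fkh promoter (chr3R:28585434-28585534).
bowl promoter: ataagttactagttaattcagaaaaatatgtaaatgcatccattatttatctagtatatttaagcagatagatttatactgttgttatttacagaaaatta
bowl intron: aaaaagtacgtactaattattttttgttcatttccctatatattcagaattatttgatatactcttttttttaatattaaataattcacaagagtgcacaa
slp1 to slp2: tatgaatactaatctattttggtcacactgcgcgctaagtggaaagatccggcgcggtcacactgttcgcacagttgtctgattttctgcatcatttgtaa
drm upstream: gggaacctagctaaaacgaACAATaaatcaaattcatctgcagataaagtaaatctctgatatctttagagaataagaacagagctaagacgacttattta
fkh promoter: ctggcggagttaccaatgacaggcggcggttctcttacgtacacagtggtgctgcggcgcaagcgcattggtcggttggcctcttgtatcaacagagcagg
Only the drm window held the core. Of the windows left out, those at the highest sob summit, the odd summit and the highest cad summit did not hold it either. The 2 bowl windows were rich in A and T, with a GC content of 20.8% each, whereas the slp1 to slp2 window had 43.6% and the fkh promoter 58.4%.

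Of the optimal summits in these genes or 10 kb either side, most lay outside their promoters, which are a small part of such intervals. Promoter-bound here means that the distance from an optimal summit to at least 1 transcription start site (TSS) of the gene was 500 bp or less. Of the 10 genes 2 met this, bowl and fkh, against 16.9% of all protein-coding genes. An optimal summit lay inside the gene body of 2 of 10, bowl and cad, against 14.3% of all genes. Within the gene or 10 kb either side there were optimal summits at 8 of 10, all but byn and hkb, against 65.5% of all genes. These shares were near those of all genes. Members differed from one another in the number of optimal summits within 10 kb, from 0 to 9, and in the strength of a few of them. The 10 intervals held 32 different optimal summits, 21 of them at the odd-skipped family and 11 at the other genes. The slp1 and slp2 intervals overlap and share 3 summits, while no other intervals overlap.

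**Figure D1:**
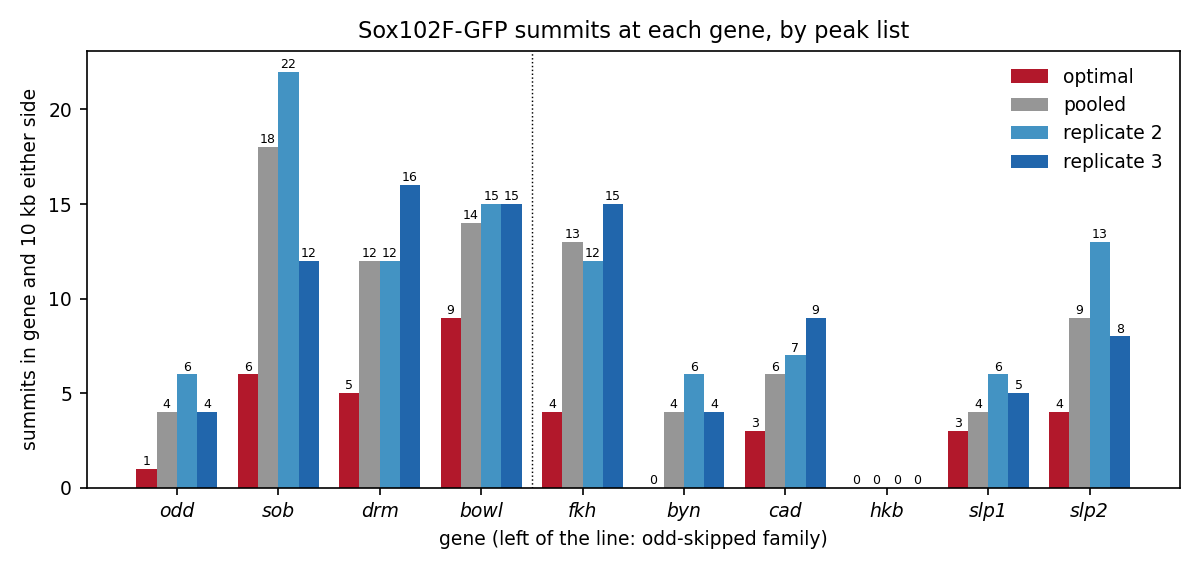
Number of summits (y axis) in each gene with 10 kb either side, for the 10 genes (x axis) and the 4 peak lists (bar colours); the lists have no replicates of their own, so there are no error bars. The optimal list gave bowl 9 summits and sob 6, byn had summits only outside the optimal list, and hkb had 0 in all 4 lists.

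Bowl, which encodes the family's effector in gut patterning, had the most summits of the 10 and the single highest one. It lies on the plus strand at chr2L:3771700-3784121 and has 4 TSSs. With 10 kb either side it held 9 optimal summits, a number reached by 1.37% of protein-coding genes, whose median was 1. Per length this was 2.78 summits per 10 kb, against 0.609 over the whole arm 2L.

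The highest was at the bowl promoter, in intergenic sequence 220 bp upstream of the first TSS (peak chr2L:3771274-3771671). Its signal value, the authors' own score of a peak, which is compared here only within a list, was 1265 in the optimal list, rank 213. In replicate 2 the peak that held this summit had a signal value of 509.7, rank 176, and in replicate 3 it had 739, rank 242. The promoter peak therefore stood near the top of every list.

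A further 5 optimal summits lay in introns of bowl, from 1382 bp downstream of one TSS to 2668 bp downstream of the last. The highest of them (peak chr2L:3776590-3776957) had a signal value of 738, rank 623, with 269.8 in replicate 2, rank 682, and 459 in replicate 3, rank 625. The other 4 intronic summits had optimal signal values from 178 to 330, so the intron held 1 strong and 4 moderate peaks. One of these 4, with 270.4, was 631 bp upstream of the last TSS, just outside the 500 bp window, while the promoter summits of bowl and fkh, at 220 bp, were the nearest inside it. A summit 1736 bp upstream of the first TSS, in an exon of lncRNA:CR43704, had 425.5, with 183 in replicate 2 and 241 in replicate 3.

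Not every summit in the bowl interval was nearest to bowl. The second highest, with 1086 in the optimal list, rank 286, 432 in replicate 2 and 651 in replicate 3, lay in an intron of the neighbouring gene bark, 487 bp from its TSS. Bark encodes a transmembrane protein of tricellular septate junctions in epithelia. Another, with 514, lay 710 bp from the TSS of the pseudogene CR31958 and 719 bp from that of bark. Without these, 7 of the 9 summits were nearer to bowl than to any other coding gene.

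The remaining family members, drm, sob and odd, lie together at chr2L:3539247-3606756, and none had an optimal summit in its promoter or gene body. Sob, at chr2L:3578013-3580769 on the minus strand, held 6 optimal summits within 10 kb, a number reached by 4.95% of protein-coding genes. They formed 2 groups, 3 downstream of the gene, nearest to the TSS of lncRNA:CR43822 and, among coding genes, to that of CG43815, and 3 upstream of it, nearest to that of lncRNA:TS2. The highest downstream summit, 6635 bp from the TSS of sob and 2076 bp from that of CG43815, had a signal value of 474, with 185 in replicate 2 and 284 in replicate 3. Upstream, the highest (peak chr2L:3588356-3588726) had 499.7, with 180.3 in replicate 2 and 327 in replicate 3, and lay 7724 bp from the TSS of sob, in an exon of lncRNA:CR43823. Both were above the median signal value of the optimal list, 204.

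The sixth summit of sob differed between replicates. It was a second row of the interval that held the upstream maximum, 7923 bp from the TSS, with an optimal signal value of 98.1, rank 7434, near the end of the list. In replicate 2 its own peak had 18.8, rank 17007, and in replicate 3 it fell into the peak of the stronger summit beside it and had none of its own. Counted once per interval, sob had 5 summits. At the sob promoter itself the pooled list had a weak peak with its summit 131 bp downstream of the TSS (23.1, rank 25129), which was outside the optimal list. Replicate 2 had one 95 bp downstream (18.8, rank 17071), and the nearest in replicate 3 was 562 bp downstream (12.4, rank 29384).

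Drm, at chr2L:3539247-3548423 on the plus strand, held 5 optimal summits, a number reached by 8.35% of genes. The highest was intergenic, 4606 bp upstream of the first TSS, with a signal value of 371.5, rank 1849, in the optimal list, 164 in replicate 2 and 206 in replicate 3. Its nearest TSS was that of lncRNA:CR44308, at 3203 bp, and its nearest coding TSS that of IFT57, a gene of intraflagellar transport, at 3852 bp. The other 4 were weaker, from 111 to 155, and lay 3686 and 5929 bp upstream of the first TSS and 15572 and 16177 bp downstream of the second. The TSS nearest to the downstream pair was that of lncRNA:CR44309. Within the gene, replicate 2 listed 1 peak and replicate 3 listed 3, none of them in the optimal list.

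Odd, the founder of the family's name, had the fewest. It lies at chr2L:3604224-3606756 on the minus strand, and the 1 optimal summit within 10 kb was 8072 bp downstream of its TSS, in intergenic sequence. Its signal value was 252, rank 2946, with 92.5 in replicate 2, rank 3117, and 158 in replicate 3, rank 3044. At least 1 such summit was found at 65.5% of protein-coding genes. Neither the promoter nor the body of odd held a summit in any of the 4 lists.

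**Figure D2:**
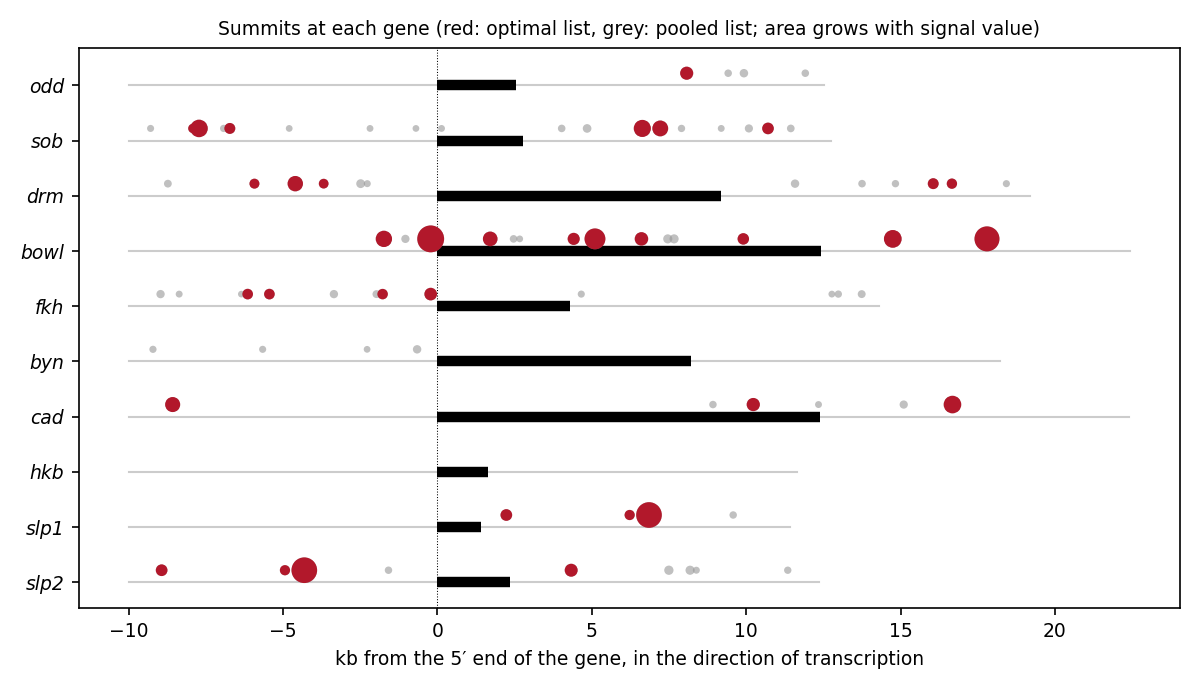
Summits by position (x axis, kb from the 5′ end of each gene along its direction of transcription) for the 10 genes (rows); black bars are gene bodies, grey lines the 10 kb either side, red points optimal summits and grey points pooled summits, with area growing with the signal value. The largest points are at the bowl promoter (1265), near bark in the bowl interval (1086) and between slp1 and slp2 (1148).

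Among the other regulators, the strongest peak lay between the neighbouring genes slp1 and slp2. Slp1 is at chr2L:3825675-3827099 and slp2 at chr2L:3836840-3839185, both on the plus strand. The summit (peak chr2L:3832308-3832712) was intergenic, 4314 bp upstream of the TSS of slp2, the nearest gene, with a signal value of 1148, rank 260. Replicate 2 gave it 402, rank 316, and replicate 3 gave it 756, rank 227. The other summits of the pair were weaker, with 187 and 128 between the genes and 245 downstream of slp2. Neither promoter held a summit in any list.

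Fkh encodes the forkhead protein required for the fore- and hindgut and the salivary glands. It lies at chr3R:28580976-28585264 on the minus strand and was the only member besides bowl with a promoter summit in the optimal list, in intergenic sequence 220 bp upstream of its most upstream TSS (peak chr3R:28585398-28585582). The signal value there was 229.6, rank 3280, with 82.9 in replicate 2, rank 3550, and 144 in replicate 3, rank 3387. A further 3 optimal summits lay 1777 to 6148 bp upstream, with signal values from 138 to 144, 2 of them in exons of lncRNA:CR43126, and for the outer 2 the nearest TSS was that of lncRNA:CR43440. All 4 optimal summits within 10 kb of fkh were thus upstream of the gene, and 14.4% of protein-coding genes had 4 or more. This depended on the window. Both replicates listed a downstream peak at its very edge, with 93.3, rank 3088, in replicate 2 and 75.2, rank 6674, in replicate 3. In replicate 2 it was higher than the promoter peak. The pooled and optimal lists held no such summit inside the window, and with flanks of 20 kb fkh had 6 optimal summits.

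Cad encodes the Caudal homeodomain protein of the posterior embryo and hindgut. It lies at chr2L:20770731-20783135 on the plus strand and held 3 optimal summits, a number reached by 25.1% of protein-coding genes. The summit inside the gene was intronic, 10066 bp downstream of the second TSS, with a signal value of 257 in the optimal list, 121 in replicate 2 and 139 in replicate 3. Its nearest TSS was that of the neighbouring gene Pomp, at 6696 bp. The highest, with 503, 186 and 320.1, lay 244 bp from the TSS of Pomp, which encodes a proteasome maturation factor. The third, with 352, 153 and 200.0, lay in an intron of dia, which encodes a formin, 1853 bp from its TSS. None of the 3 was thus nearest to a TSS of cad. At the cad promoter only replicate 2 had a peak, 189 bp upstream of the TSS, at 24.5 and rank 12524.

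Byn encodes the T-box protein Brachyenteron, the hindgut's Brachyury homologue, and hkb encodes the zinc finger protein Huckebein, a terminal gap regulator. Neither had an optimal summit within 10 kb. At byn, which lies at chr3L:11927693-11935919 on the plus strand, the nearest optimal summit was 30786 bp away, but a weaker peak was listed 660 bp upstream of the TSS in the pooled list (67.3, rank 10231). The peak lay in an intron of CG44837. Both replicates held a peak there, with 31.2, rank 9634, in replicate 2 and 36.7, rank 12214, in replicate 3.

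Hkb, at chr3R:4345015-4346646 on the minus strand, was the only member with 0 summits within 10 kb in all 4 lists. This held for 7.93% of protein-coding genes. The nearest summit was 13768 bp away in replicate 2 (22.8), 32036 bp away in replicate 3 (86.7), 47877 bp away in the pooled list (24.6) and 48682 bp away in the optimal list (809). The 21.6 kb of the interval held 0 undetermined bases in the reference, and its GC content of 42.2% was within the range of 41.7 to 45.9% over the 10 intervals. Whether reads could be placed uniquely there was not tested, and a list that ends at 30000 peaks does not show the protein to be absent.

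Within 10 kb the median number of optimal summits was higher at the family than at the other regulators, but odd had fewer than the rest of the family. All 4 odd-skipped genes had an optimal summit within 10 kb, with a median of 5.5 and a range of 1 to 9, and 4 of the 6 others had, with a median of 3 and a range of 0 to 4. Over all protein-coding genes the median was 1 and the mean 1.69. Divided by interval length the family ranged from 0.444 to 2.78 summits per 10 kb and the others from 0 to 1.79. These per-length ranges overlapped, also without odd, since drm had 1.71 and slp2 1.79. With 4 genes against 6, 3 of the family sharing 1 locus and slp1 sharing summits with slp2, no test of the difference was made.

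The family's median was also the higher one in the longer lists, but not in the optimal list with flanks of 5 kb. In the pooled list the family's median was 13 summits against 5 for the others, in replicate 2 it was 13.5 against 6.5, and in replicate 3 it was 13.5 against 6.5. With flanks of 5 kb the optimal list held 0 summits at odd, 2 each at sob and drm and 8 at bowl. The others had 2 each at fkh, cad and slp1, 3 at slp2 and 0 at byn and hkb, so only bowl stood above them. Promoter summits were found at 3 of 10 genes in the pooled list (29.5% of all genes), 4 of 10 in replicate 2 (28.6%) and 2 of 10 in replicate 3 (37.0%). Gene-body summits were found at 3 of 10 (23.7%), 4 of 10 (25.2%) and 6 of 10 (27.4%). Within 10 kb all but hkb had a summit, 9 of 10 in each, against 81.3%, 83.1% and 86.8%.

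**Figure D3:**
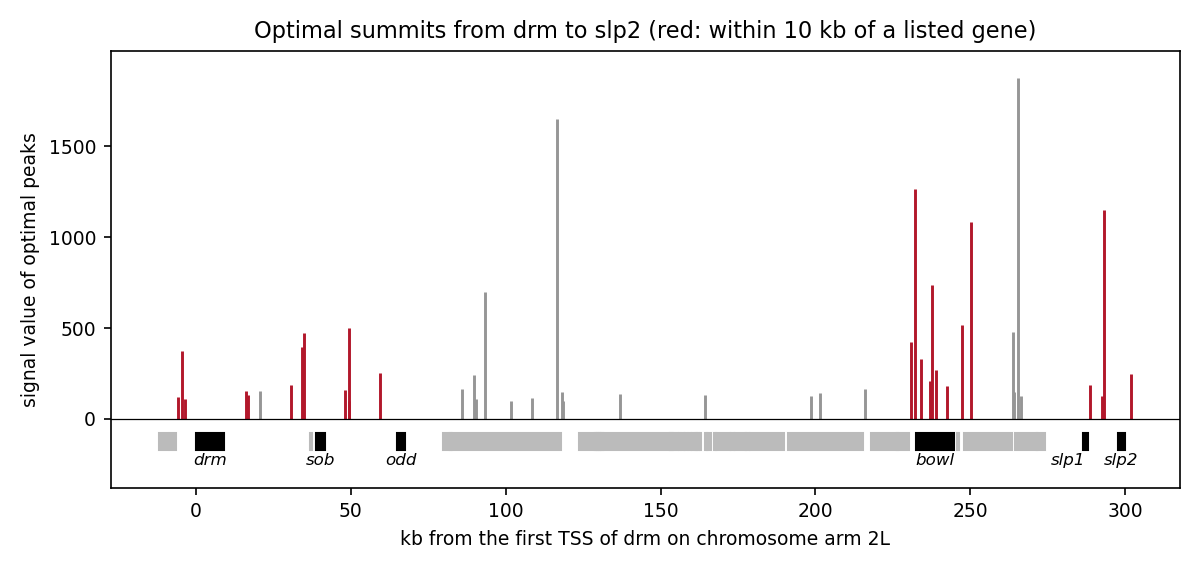
Signal value of every optimal peak (y axis, lines) along the part of arm 2L that holds drm, sob, odd, bowl, slp1 and slp2 (x axis, kb from the first TSS of drm); red lines lie within 10 kb of one of these genes, grey lines do not, black boxes are these genes and grey boxes other protein-coding genes. Red lines above 1000 stand only at the bowl, bark and slp positions, and the lines from drm to odd stay at or below 499.7.

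Because 6 of the 10 genes lie within one stretch of 2L, their summits share a neighbourhood. From 10 kb before drm to 10 kb after slp2 (chr2L:3529247-3849185, 320.0 kb) there were 44 optimal summits, or 1.38 per 10 kb against 0.609 over the arm. Density differed along it. Between drm and sob it was 2.03 per 10 kb, between sob and odd 1.71, between odd and bowl 0.97, between bowl and slp1 1.44, and between slp1 and slp2 3.08 over 9.74 kb. The pooled list, with 2.46 over the arm, gave 6.76, 6.4, 2.61, 1.68 and 4.11 in the same order. There the density between odd and bowl was near that of the arm, and between bowl and slp1 it was below it. The sequence from drm to odd, gene bodies included, held 10 optimal summits and none of them was in a gene of the family.

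Both replicates had peaks over these summits, but for the sixth summit of sob the replicate 3 peak was that of the stronger summit beside it. All 32 lay in peaks of both replicates (100%, 95% Wilson interval 89.3 to 100%, which covers counting error of summits only), against 94.4% of all optimal summits. Their ranks ran from 176 to 17007 in replicate 2, with a median of 3233, and from 227 to 8976 in replicate 3, with a median of 3113. Since the authors made the optimal list with these same replicate lists, this is a description. With a reciprocal overlap of 50% required, 22 of 32 (68.8%) were in both, against 72.1% of all optimal peaks.

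**Figure D4:**
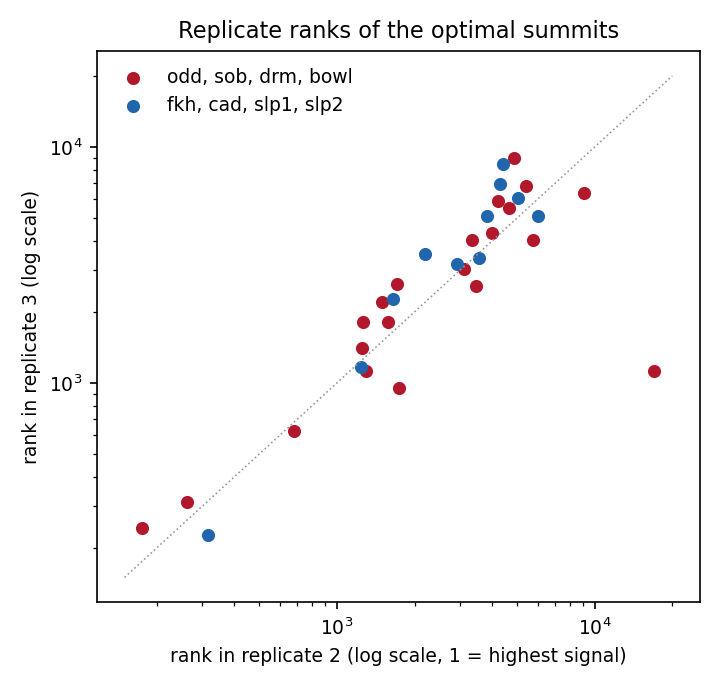
Rank of each of the 32 optimal summits in replicate 2 (x axis) and replicate 3 (y axis), both log scales, where 1 is the highest signal; red points belong to odd, sob, drm and bowl, blue points to the other genes, and the dotted line marks equal ranks. The point far to the right is the shoulder summit of sob, rank 17007 in replicate 2, whose rank in replicate 3 (1121) is that of the peak beside it.

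By annotation the summits were more often intergenic than the whole optimal list. Of the 32, 19 (59.4%, Wilson interval 42.3 to 74.5%) were intergenic, against 34.8% of all optimal summits. Introns held 8 (25.0%, interval 13.3 to 42.1%), against 57.3%, and exons, all of non-coding genes, held 5 (15.6%, interval 6.86 to 31.8%), against 7.99%. Within 500 bp of any coding TSS lay 4 (12.5%, interval 4.97 to 28.1%), against 27.4%. The intervals of short genes are mostly flank by the way they were drawn, so these shares describe the intervals and were not tested. For 15 of the 32 the nearest TSS was that of a non-coding gene, and for 22 the nearest coding TSS was a member's.

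Signal was moderate apart from a few peaks. The 32 summits had signal values from 98.1 to 1265 with a median of 248, against a median of 204 over the optimal list. Of them 4 were among the 749 highest of the 7488 optimal peaks, a share near that of the whole list. These 4 were the 2 named bowl peaks, the peak at bark and the peak between slp1 and slp2.

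Sequence words of known factors were counted at the summits and over the whole list. Within 50 bp, on either strand, ACAAT lay at 7 of 32 (21.9%, Wilson interval 11.0 to 38.8%), against 33.9% of all optimal summits. Of the other Sox words, AACAAT lay at 3 (9.38%, interval 3.24 to 24.2%, against 15.4%) and ACAAAG at 4 (12.5%, interval 4.97 to 28.1%, against 7.6%). The word TAACA, the same bases as ACAAT in reverse, lay at 8 (25.0%, interval 13.3 to 42.1%, against 29.9%). AACAAT contains ACAAT and TAACAA contains TAACA, so these counts are not independent. Each of the 4 intervals held the share of the whole list, so a difference was not detectable with 32 summits.

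The word TAACAA lay at 3 (9.38%, against 13.6%). Words of the gut factors themselves were counted too. The forkhead word TAAACA lay at 4 (12.5%, against 16.5%), the Caudal word TTTATG at 3 (9.38%, against 14.4%), and the T-box word GGTGTGA at 0 (against 0.494%). With 100 bp either side, TAAACA lay at 28.1% (against 27.8%), TTTATG at 28.1% (against 25.8%) and GGTGTGA at 0 (against 1.22%). The homeodomain word TAATTA lay at 3 (9.38%, against 11.9%) and the GATA word AGATAA at 2 (6.25%, against 9.05%). The DRE word TATCGAT lay at 0 (against 1.72%), as did the GAGA word GAGAGAG (against 0.574%). Of the E-boxes, CACCTG lay at 0 (against 1.64%), the form CAGCTG at 1 (3.12%, against 2.24%) and the form CACGTG also at 1 (3.12%, against 0.681%). The summit windows had a median GC content of 30.2%, from 17.8 to 58.4%, against a median of 29.7% over the list. The fkh promoter had the highest. A match is no evidence of a site, and a window without one says nothing about the factor.

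A list of 26 further genes of foregut, midgut and hindgut patterning, chosen for their known roles, was counted in the same way. None was promoter-bound in the optimal list, against 16.9% of all genes, while 20 of 26 (76.9%) had an optimal summit within 10 kb, against 65.5%, with a median of 1. The promoter direction turned in the pooled list, where 9 of 26 (34.6%) were promoter-bound, against 29.5% of all genes. The 10 kb direction turned among optimal peaks above the median signal, where 10 of 26 (38.5%) had a summit, against 49.9%. It did not turn in the pooled list (84.6%, against 81.3%). In the optimal list the most summits within 10 kb, 7, were at bin, which encodes a forkhead protein of the visceral mesoderm. Dpp, which encodes a BMP ligand, and esg, which encodes a Snail-family repressor, had 4 each. No pooled peak lay within 10 kb of Kr, bap, lin and opa. Kr, which encodes a gap-class zinc finger protein, had 0 in all 4 lists, as hkb did.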

How the data were processed

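The deposited files are peak lists in narrowPeak format on dm6. Files named as inputs, per the file lists deposited with them, are the alignments and 1 control for a replicate list, both sets of alignments with that control for the pooled list, and peak lists for the optimal one. The aligner and caller were not given in the sources used here. Each signal value deposited by the authors is a score with no stated depth scaling, so it was compared only within a list.

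A summit is the interval start plus the offset, counted from 1. Genes and TSSs are those of Ensembl release 115 (BDGP6), and sequence is the RefSeq Release 6 assembly, whose arms carry the same coordinates as dm6. A replicate held a summit when it lay in one of its peaks. Intervals are 95% Wilson intervals. With 1 group of 2 replicates no test between conditions was possible, and none was run. Leaving out a replicate meant using the 7488 highest peaks of the other replicate's list. Counting was tested on simulated data.

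The 10 genes, the list of 26 others and the 15 words were chosen with earlier results of these data known. All 10 genes are named, with each gene nearest to one of their summits, and of the 26 the rule named up to 6 promoter-bound genes and those with 0 pooled peaks. No promoter-bound gene was found, and bin, dpp and esg were named after their values were seen. Scripts ran in Python 3.11.15. Tables were handled with pandas 2.3.3 and numpy 2.4.6, intervals with scipy 1.17.1, and plots with matplotlib 3.10.9.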

Additional observations from a re-analysis of the deposited data

How the results depend on the processing

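The same 2 genes were promoter-bound (bowl and fkh) and the same 2 had a gene-body summit (bowl and cad) among optimal peaks above the median signal, with each replicate left out, with repeated intervals counted once, and, for promoters, with windows of 250 and 1000 bp and with RefSeq TSSs. The pooled list added sob to both. A summit within 10 kb was found at 8 members in each of the settings tried except the pooled list (9, with byn) and a flank of 5 kb (7, without odd). The total of 32 summits was also 32 without either replicate, but these were not the same summits: the counts moved from 6 to 5 at sob, 5 to 4 at drm, 9 to 10 at bowl and 4 to 5 at fkh in both cases, and from 3 to 2 at slp1 without replicate 2. It was 19 among peaks above the median signal, 80 in the pooled list, 20 with flanks of 5 kb and 50 with flanks of 20 kb, since these settings take in fewer or more peaks or bases. The share held by both replicates was 68.8% with a reciprocal overlap of 50%. The word ACAAT lay at 53.1% of summits in windows of 100 bp either side, against 53.1% over the optimal list. Of the 26 further genes, by settings added after the data were seen, the promoter-bound count was 9 in the pooled list (34.6%, against 29.5% of all genes) and 1 (dve) with the 1000 bp window (3.85%, against 20.8%). It was from 0 to 1 (lin) when a replicate was left out, against 15.6 to 20.4% of all genes. Those with a summit within 10 kb were 10 above the median signal (38.5%, against 49.9%). Elsewhere their share stayed above that of all genes. It was 84.6% against 81.3% in the pooled list, 76.9% against 70.0% without replicate 2 and 84.6% against 63.3% without replicate 3. With flanks of 5 kb it was 69.2% against 49.0%, and with 20 kb 92.3% against 83.2%. Depth was unknown, so weak peaks cannot be told from the end of each list.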

Other observations

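Lines, the protein that links Drm to Bowl, is encoded by lin, and its peaks differed between replicates. In replicate 3 a peak 402 bp upstream of the lin TSS had a signal value of 130 and rank 3826, and a second, 7120 bp upstream, had 211 and rank 2128. Neither the replicate 2, the pooled nor the optimal list held a peak within 10 kb of lin, so these are values of 1 replicate. Why peaks of this rank are missing from the pooled list was not tested.

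Outside the 10 intervals, the drm to slp2 stretch held 2 optimal peaks with higher signal values than any at the listed genes. One with 1649 (rank 108) lay between odd and bowl, inside the gene named for. The other, with 1877 (rank 76), lay between bowl and slp1, inside the gene Reph.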
